A study of Mus musculus with 15 samples.

Results

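The 72 promoters described here belong to genes of G protein signalling and cyclic nucleotide metabolism: receptors, G protein subunits, receptor kinases, regulators of G protein signalling, adenylyl cyclases and phosphodiesterases. They were picked from the gene names of a mouse promoter-capture Hi-C table by the prefixes Gpr, Htr, Adra, Adrb, Drd, Chrm, Adora, Adcy, Pde, Gna, Gnb, Gng, Rgs and Grk. They are 72 of 4429 promoters in the table, and they hold 645 of its 36353 promoter-fragment listings (1.77%). A listing is 1 promoter paired with 1 HindIII restriction fragment that it was found ligated to. All 72 names were matched to mouse genes, 67 by their current symbol and 5 by an older one: Adrbk2 is now Grk3, and Gpr64, Gpr123, Gpr125 and Gpr128 are adhesion receptors now named Adgrg2, Adgra1, Adgra3 and Adgrg7. The reference lists 213 protein-coding genes with names of this pattern, and 68 of them are in the table, 67 under that name and Grk3 under its older one. None of its 5 Drd genes, the dopamine receptors, is in the table. By the labels 5000 promoters were targeted for capture, and whether the absent genes were among them was not tested.

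Promoter-capture Hi-C ligates DNA ends that lie close together in fixed nuclei and then pulls out, with RNA baits, the ligation products that contain chosen promoters. The nuclei came from the hippocampus of ArcCreERT2 x R26R-STOP-floxed-eYFP mice with the genotype given as +/+, in which an inducible Cre driven by the activity-regulated Arc gene turns on a yellow fluorescent protein. By the labels, which give 1 protocol for all samples, every group shares this line and 4-hydroxytamoxifen given 1 h before contextual fear conditioning. Also shared are 48 h in the dark and sorting of nuclei with NeuN and GFP antibodies. Each condition pooled tissue of 10 to 12 mice to reach 10000 nuclei. The 15 libraries carry 4 group names, Basal (3 libraries), Early (4), Late (4) and Reactivated (4). In the protocol, brains were taken either 1.5 to 2 h following the task or on day 5, the latter with or without a second exposure to tone and context, but the labels do not say which group had which. The treatment label instead gives every library a foot shock on day 0, no recall and a collection day that runs from 0 to 14 in sample order, so the groups are used here as titled, without an interval. The labels also do not say whether the Basal nuclei carried the fluorescent protein, and no animal age is given.

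G protein-coupled receptors sit in the cell membrane and hand a signal to a trimer of alpha, beta and gamma subunits. Alpha subunits of the Gs class switch adenylyl cyclases on, those of the Gi class switch them off, and those of the Gq class act on phospholipase C; phosphodiesterases break the resulting cyclic AMP and cyclic GMP down. Receptor kinases and RGS proteins end the signal, the former by marking active receptors and the latter by speeding GTP hydrolysis on the alpha subunit. In hippocampal neurons cyclic AMP signalling through protein kinase A and the transcription factor CREB is among the best studied routes to lasting synaptic change.

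The captured ends are promoters, so upstream sequences of the members that the contact results turn on are shown first. They are the 250 bases before the transcription start, 5' to 3' on the gene's strand, from RefSeq on GRCm38.p6, which is not the mm9 build of the fragments; where a gene has several starts the most upstream is shown. Capitals mark TGACG or its reverse complement CGTCA, the half-site of the cyclic AMP response element.
Adora1: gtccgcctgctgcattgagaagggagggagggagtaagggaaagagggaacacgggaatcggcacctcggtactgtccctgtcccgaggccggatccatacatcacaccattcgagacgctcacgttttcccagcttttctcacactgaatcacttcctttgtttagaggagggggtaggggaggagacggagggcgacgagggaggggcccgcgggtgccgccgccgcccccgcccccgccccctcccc
Adcyap1r1: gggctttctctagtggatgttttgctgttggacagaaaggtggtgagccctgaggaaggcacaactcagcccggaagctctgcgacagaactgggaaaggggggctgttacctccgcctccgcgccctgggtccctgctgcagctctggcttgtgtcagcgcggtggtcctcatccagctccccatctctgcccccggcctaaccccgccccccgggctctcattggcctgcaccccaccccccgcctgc
Gnai1: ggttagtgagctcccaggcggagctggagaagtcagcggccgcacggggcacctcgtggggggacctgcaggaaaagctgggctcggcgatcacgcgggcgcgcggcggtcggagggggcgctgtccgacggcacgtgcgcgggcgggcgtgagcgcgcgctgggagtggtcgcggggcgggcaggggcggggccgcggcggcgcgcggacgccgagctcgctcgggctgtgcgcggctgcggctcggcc
Grk6: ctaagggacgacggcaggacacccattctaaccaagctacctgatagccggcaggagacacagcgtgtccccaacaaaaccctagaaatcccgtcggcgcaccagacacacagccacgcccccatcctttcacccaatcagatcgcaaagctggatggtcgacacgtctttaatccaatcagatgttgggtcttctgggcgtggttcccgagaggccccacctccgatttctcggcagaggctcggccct
Rgs7bp: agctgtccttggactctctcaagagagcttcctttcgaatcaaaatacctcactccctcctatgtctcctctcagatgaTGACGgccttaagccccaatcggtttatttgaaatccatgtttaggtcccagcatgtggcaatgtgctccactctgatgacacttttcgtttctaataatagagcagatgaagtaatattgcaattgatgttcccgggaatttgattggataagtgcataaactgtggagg
Adcy7: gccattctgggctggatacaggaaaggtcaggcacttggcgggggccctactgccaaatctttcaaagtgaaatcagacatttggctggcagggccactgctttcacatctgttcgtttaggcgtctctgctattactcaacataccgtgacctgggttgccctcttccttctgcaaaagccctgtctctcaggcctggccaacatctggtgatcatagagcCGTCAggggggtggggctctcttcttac
These windows lie at chr1:134235458-134235707 (minus strand) for Adora1, chr6:55451728-55451977 (plus) for Adcyap1r1, chr5:18360414-18360663 (minus) for Gnai1, chr13:55444822-55445071 (plus) for Grk6, chr13:105054931-105055180 (minus) for Rgs7bp and chr8:88282742-88282991 (plus) for Adcy7. Of the 6 windows shown, those of Rgs7bp and Adcy7 hold 1 half-site each, starting 171 and 28 bases before the transcription start. RefSeq promoter windows were found for 54 of the 72 genes, 82 windows in all. The half-site TGACG, read on both strands, was in 14 of the 82 windows (17.1%), of 12 genes, and in 17.8% of 32851 windows of all genes. The full element TGACGTCA, which contains the half-site on each strand, was in 0 of the 82 and in 1.55% of all. The HindIII site AAGCTT, which is the same on both strands, was in 5 of the 82 (6.10%) and in 6.22% of all. The member windows held a median of 10 CpG dinucleotides against 6 over all windows, and their median GC content was 57.6% against 52.4%. These matches describe letters in a window and no factor's binding was measured.

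Each deposited value is an interaction score, a whole number of 2 or more given where a library supports the pair, and a listing with no entry in a library was taken as a score of 0. Libraries differed in how much they hold: Basal libraries listed 4054 to 6039 pairs, Early 1715 to 6956, Late 3435 to 8296, and Reactivated 35, 388, 11574 and 12133. The scale of the scores also differed by library. The median score over all listed pairs was 299, 194 and 13 in Basal 1 to 3 and 65, 155, 100 and 64 in Early 1 to 4. It was 18, 19, 160 and 99 in Late 1 to 4 and 38, 10, 308 and 313 in Reactivated 1 to 4. Raw scores below are not scaled for this, and its part in their differences between libraries was not tested. Reactivated library 1 held no member pair at all, where 3 counts of its 35 would be a share of 8.57%, and Reactivated library 2 held 4. The other 13 libraries held 38 to 216 member pairs, and members made up 1.48% to 2.22% of the pairs in each of them. Some libraries of a group also shared many of their fragments: libraries 1 and 2 of Basal, 3 and 4 of Early, and the pairs 1 with 2 and 3 with 4 of both Late and Reactivated. Each of these shared at least 40% of the smaller library's fragments and is called a library set, which leaves 9 sets. The shared part ran from 48.3% (Late 1 with Late 2) to 100% (Reactivated 1 with Reactivated 2). Among members, Basal 2 shared 91.7% of its pairs with Basal 1, Reactivated 3 shared 95.5% with Reactivated 4, and Late 1 shared 45.2% with Late 2. Between sets of a group the shared part was 5.88% to 25%, the latter being 1 of 4 pairs. Whether the libraries of a set come from separate pools of mice is not stated, so p-values here measure the spread between libraries. Of 23 marker promoters of brain cell types, 16 are in the table, neuronal ones (Rbfox3, Snap25, Slc17a7, Tubb3) among them; they show which promoters were captured and listed, not which cells were sorted.

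Member promoters had values close to those of the rest of the table in the number of their contacts and in how often those contacts came back. Members had a median of 7 listed fragments (quartiles 4 and 12, range 1 to 30), and the 4357 other promoters had a median of 6 (quartiles 3 and 11). A member pair was scored in 2.32 libraries on average and any other pair in 2.30. Of member pairs, 63.6% (Wilson 95% interval 59.8% to 67.2%) were scored in a single library set, against 65.6% of other pairs, and 12.4% (10.1% to 15.2%) were scored in 3 or more sets, against 11.1%. Without Grk6, the promoter with the most recurrent contacts, the share in 3 or more sets was 11.1%. These intervals cover counting error only, and pairs of 1 promoter are not independent of each other.

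**Figure D1:**
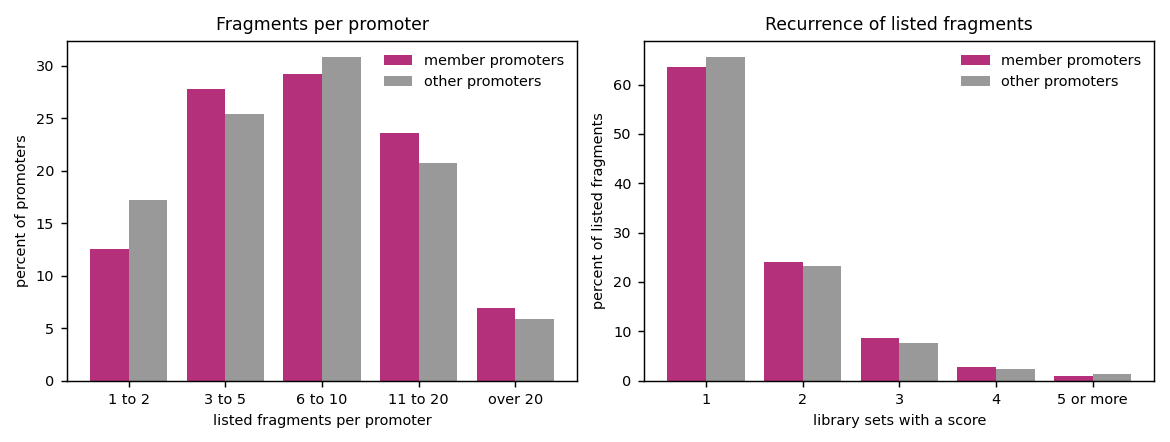
Left, percent of promoters (vertical axis) by number of listed fragments (horizontal axis) for the 72 member promoters and the 4357 others; right, percent of listed pairs by the number of library sets in which they were scored. The paired bars differ by less than 5 percentage points in every bin, and 63.6% of member pairs lie in the bin of 1 library set.

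Within the member list, near contacts and shared fragments held larger shares of recurrent pairs, given here as counts with no test. A contact was counted as near when its fragment began within 1 Mb of the median fragment of the same promoter, since bait positions are not in the table. Near contacts made up 78.9% of member pairs and 77.6% of the others. Among members, 14.7% of the 509 near contacts were scored in 3 or more sets and 3.68% of the 136 others; for other promoters these shares were 13.0% and 4.58%. Fragments listed with at least 1 other promoter made up 14.9% of member pairs (96 of 645) and 15.4% of the rest. Of these 96, 38.5% were scored in 3 or more sets, against 7.83% of the 549 member fragments that no other promoter was listed with; for other promoters the corresponding values were 34.3% and 6.88%. No fragment was listed with 2 members. The members and the promoters sharing a fragment with them formed 107 pairs, of which 106 could be placed in the reference gene order. Of these, 67 were within 20 genes of each other. The median distance was 8 genes over the placed pairs with both genes on the same chromosome. Gpr123 and Rpl21, placed on different chromosomes, had no such distance.

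An interaction was counted as called in a library at a score of 5 or more. Members had a call on 160 of their pairs in the Basal group, on 281 in Early, on 247 in Late and on 222 in Reactivated libraries, or 24.8%, 43.6%, 38.3% and 34.4% of all member pairs. The same shares over other promoters were 27.2%, 39.8%, 36.7% and 33.8%. Of the pairs called in Basal, 25.6% were called in no other group, and this share was 51.2% in Early, 51.0% in Late and 48.6% in Reactivated; the other promoters had 33.1%, 52.1%, 51.2% and 51.5%. Basal has 3 libraries in 2 sets and Early 4 libraries in 3 sets, and the part of these numbers in the shares was not tested. Of the 72 members, 40 (55.6%) had a call in all 4 groups, beside 54.4% of the other promoters, 15 in 3 groups, 11 in 2 and 6 in 1. Promoters with at least 1 call made up 65.3% of members in Basal, 80.6% in Early and 88.9% each in the Late and Reactivated groups, beside 71.4%, 82.0%, 86.0% and 82.1% of the others.

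**Figure D2:**
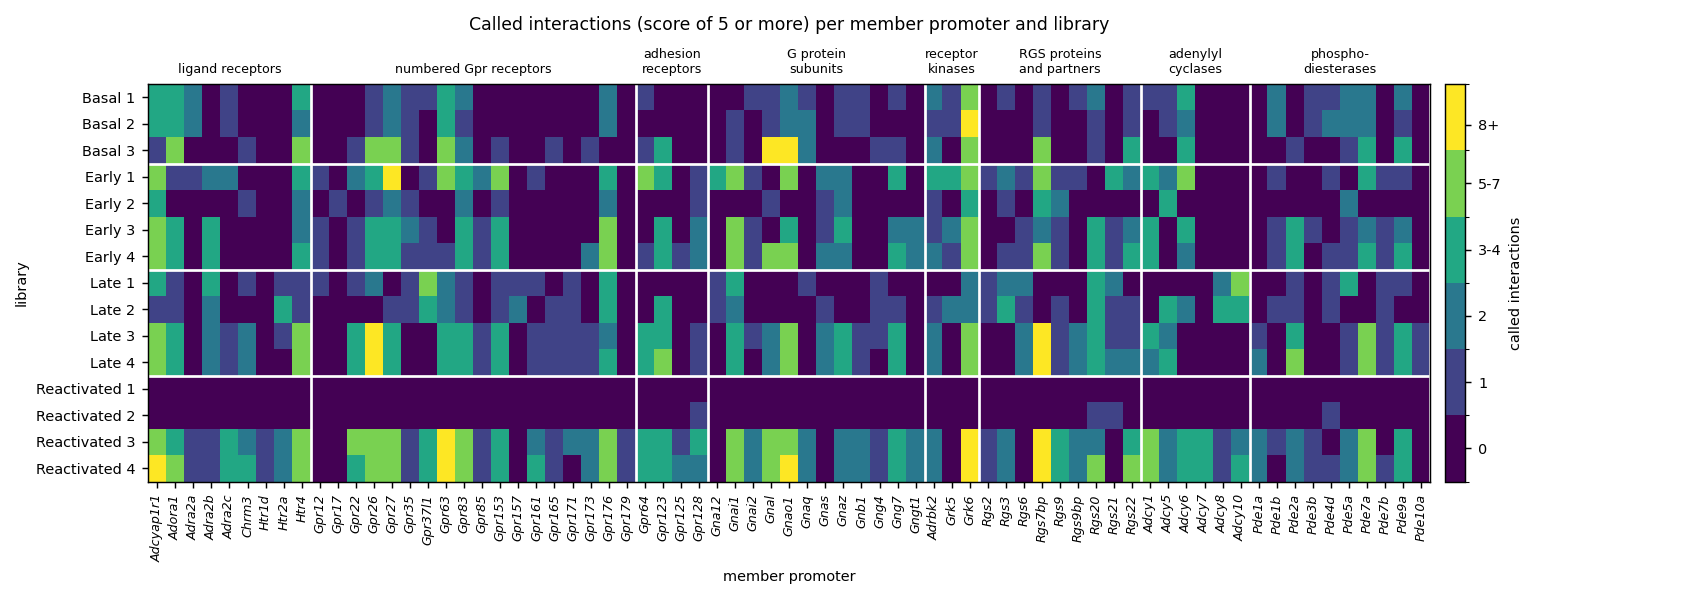
Called interactions (score of 5 or more, colour) for 71 of the 72 member promoters (horizontal axis, grouped by role) in each of the 15 libraries (vertical axis, white lines between groups). Reactivated libraries 1 and 2 hold 0 and 4 member calls, Reactivated libraries 3 and 4 hold 194 and 212, and neighbouring libraries of 1 set have similar rows.

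The 10 receptors with a known transmitter or peptide ligand held 105 pairs; among them is Adcyap1r1, whose name matches the cyclase prefix although it encodes a receptor. Adora1, the adenosine A1 receptor that couples to Gi proteins, had 12 fragments, 2 of them listed with another promoter. It had 3, 3 and 6 calls in Basal libraries 1 to 3, then 1, 0, 3 and 3 in the Early libraries, 1, 1, 3 and 3 in the Late ones, and 0, 0, 4 and 6 in the Reactivated ones. All 3 Basal libraries are at or above every Early and Late library, and the Reactivated values lie on both sides of them. Its most widely scored fragment, chr1:136158272-136161533 on mm9, had Basal scores of 828, 503 and 8, Early scores of 0, 0, 77 and 34, no Late score, and Reactivated scores of 0, 0, 1650 and 1807. No other promoter was listed with that fragment.

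Adcyap1r1, the receptor for the peptide PACAP and an activator of adenylyl cyclase through Gs, had 26 fragments, the largest number among the receptors, and none was shared with another promoter. Its calls were 4, 3 and 1 in Basal, 7, 3, 5 and 7 in Early, 3, 1, 6 and 7 in Late, and 0, 0, 7 and 8 in Reactivated. The ranges of all 4 groups overlapped, and no Early library was below 3. The fragment chr6:55342229-55346144 had scores of 1304, 835 and 15 in Basal, 0, 0, 90 and 59 in Early, 104, 136, 0 and 0 in Late, and none in Reactivated, while chr6:55422400-55424188 reached 1165 and 1253 in Reactivated libraries 3 and 4 beside 154 and 122 in Basal 1 and 2 and 45 in Early 1. These 2 fragments of 1 promoter thus had their highest raw scores in different groups, in Basal 1 and Reactivated 4. Median scores over all pairs of those libraries were 299 and 313.

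Adra2a and Adra2b encode adrenergic alpha-2 receptors, which couple to Gi. Adra2a had 3 fragments with 2, 2 and 0 Basal calls, 1 in Early library 1, none in Late and 1 each in Reactivated libraries 3 and 4. Adra2b had 7 fragments with no Basal call, 2, 0, 3 and 3 Early calls, 3, 2, 2 and 2 Late calls, and 1 each in Reactivated 3 and 4; its Basal and Late libraries did not overlap. Of the serotonin receptors, Htr4, which acts through Gs, had 18 fragments called in 13 of 15 libraries. Htr2a, which acts through Gq, had 6 fragments with no call in Basal or Early, 1, 3, 1 and 0 calls in Late and 2 each in Reactivated 3 and 4. Each of the 6 Htr2a fragments was scored in 1 library set. Htr1d had 1 fragment, scored 163 and 277 in Reactivated 3 and 4 and nowhere else. Chrm3, the muscarinic acetylcholine receptor of the Gq class, had 7 fragments and at most 3 calls in any library.

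The 18 receptors known by a Gpr number held 155 pairs, with a median of 5 fragments. Gpr27 had the most, 23, followed by Gpr26 and Gpr176 with 20 each, Gpr83 with 19 and Gpr63 with 18. Gpr26 and Gpr27 are brain-expressed receptors without an established ligand. Gpr27 had 2, 2 and 5 calls in Basal, 9, 2, 4 and 4 in Early, 0, 1, 3 and 3 in Late, and 0, 0, 5 and 7 in Reactivated. Gpr26 had 1, 1 and 6 calls in Basal, 3, 1, 3 and 4 in Early, 2, 0, 8 and 10 in Late, and 0, 0, 5 and 5 in Reactivated. Within Late, the values of Gpr26 split between the library sets, with libraries 3 and 4 both well above libraries 1 and 2. At the other end, Gpr12, Gpr157, Gpr17 and Gpr179 had 1 or 2 fragments each, and the single Gpr179 fragment was scored 1332 and 1629 in Reactivated 3 and 4 only. Gpr22 had a fragment scored in all 4 groups, chr12:32489530-32497412, which was also listed with Bcap29: 12 in Basal 3, 97 in Early 1, 486 and 376 in Late 3 and 4, and 744 and 899 in Reactivated 3 and 4.

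The 4 adhesion receptors, which carry long extracellular domains, held 31 pairs, and 25.8% of these were scored in 3 or more sets. Gpr64 had a fragment on chromosome X, chrX:156605334-156607328, also listed with Pdha1, that was scored in 7 libraries of 5 sets. Its scores were 8 in Basal 3, 37 and 7 in Early 1 and 4, 409 and 299 in Late 3 and 4, and 14 and 6 in Reactivated 3 and 4. Gpr123 had 13 fragments, and 4 of them were scored in 3 or more sets. One of these, chr7:147015282-147017970, had 33 in Basal 3, 913 and 667 in Late 3 and 4, and 2717 and 3364 in Reactivated 3 and 4.

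Among 12 G protein subunits with 107 pairs, Gnao1 (21 fragments) and Gnai1 (19) had the most. Both encode alpha subunits of the Gi/o class, and Gnao1 is the abundant one in brain. Gnai1 had 0, 1 and 1 calls in Basal, 6, 0, 6 and 7 in Early, 3, 2, 3 and 3 in Late, and 0, 0, 7 and 7 in Reactivated. Early library 2 stands apart at 0, and Late libraries all exceed the Basal ones. The Gnai1 fragment chr5:17642524-17642800 was scored 342 and 233 in Early 3 and 4, 99 and 83 in Late 3 and 4, and 34 and 33 in Reactivated 3 and 4. Gnao1 had 2, 2 and 8 calls in Basal, 5, 0, 3 and 5 in Early, 0, 0, 5 and 5 in Late, and 0, 0, 7 and 8 in Reactivated, so the spread inside each group was as wide as that between groups.

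Gnas and Gnaq, the stimulatory subunit and the phospholipase-coupled one, had few fragments (8 and 5). Gnas had no Basal call, 2, 1, 1 and 2 in Early, 0, 1, 2 and 2 in Late and none in Reactivated. Gnaq had 1, 2 and 2 Basal calls, none in Early, 1 in Late library 1, and 2 each in Reactivated 3 and 4. For both genes the Basal and Early libraries do not overlap, in opposite directions. Calls at Gnaz, Gpr128 and Rgs9 (higher in Early) and Grk6 (lower) also did not overlap between these groups. Gnas, Gpr128 and Rgs9 had no Basal call, so a call in every Early library is enough to separate them. The share of all promoters whose calls separate 2 groups in this way was not counted, here or at the other members. Whether such separations are more frequent among members is therefore not known. Gnal, a relative of Gnas known from olfactory and striatal neurons, had 17 fragments, with 1, 1 and 9 calls in the Basal libraries. Gnb1 had 2 fragments and Gng7, a gamma subunit, had 9, of which 5 were shared with other promoters such as Lmnb2 and Map2k2.

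**Figure D3:**
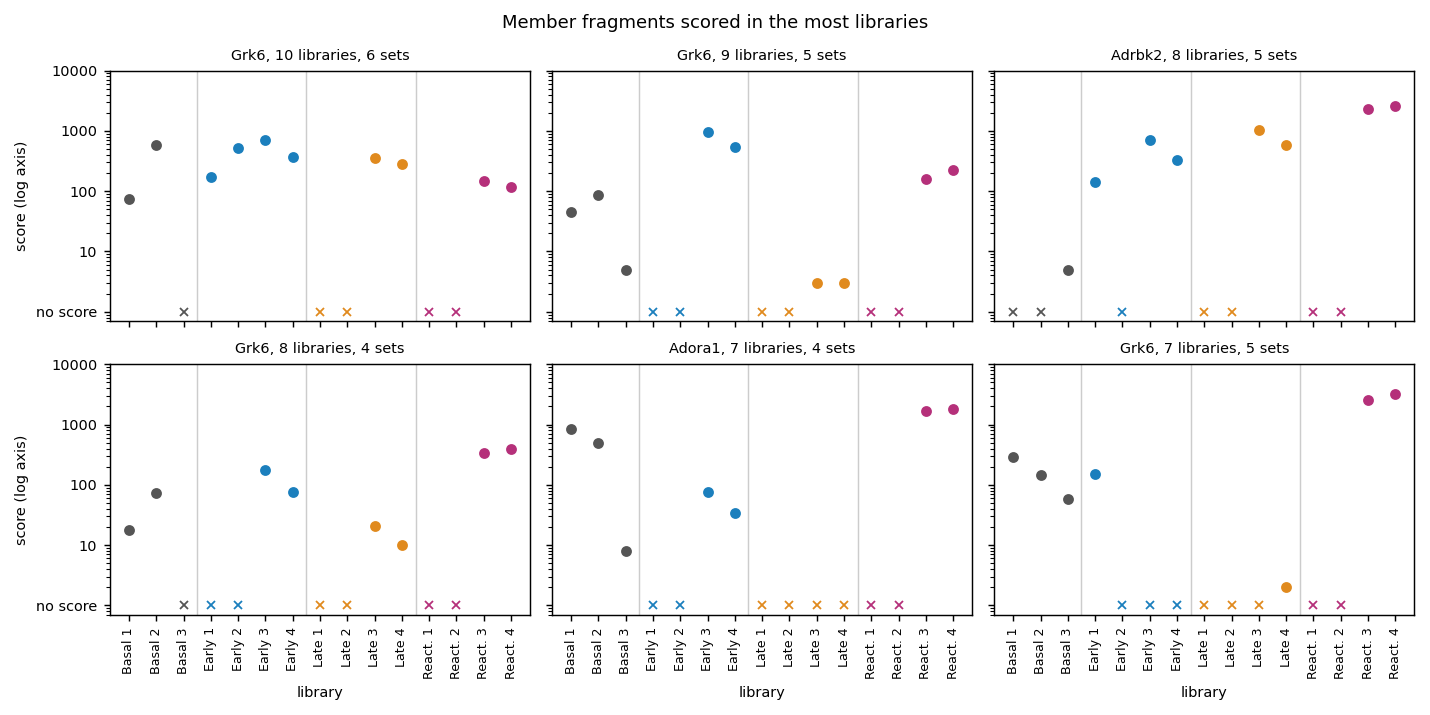
Score by library (vertical log axis, crosses mark libraries with no score) for 6 member fragments scored in the most libraries (ties at 7 libraries taken by the sum of asinh scores), coloured by group along the horizontal axis. Of the 6, 4 belong to Grk6, 1 to Adrbk2 and 1 to Adora1, and none has a score in Late 1, Late 2, Reactivated 1 or Reactivated 2.

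Receptor kinases had the most recurrent contacts of any role: 48.1% of their 27 pairs were scored in 3 or more sets. All 13 of those pairs belong to Grk6 (10) and Adrbk2 (3), so the share describes 2 of the 3 promoters. Grk6 had 16 fragments, and 11 of them were also listed with other promoters, among them Fam193b, Lman2 and Pdlim7. It had 7, 8 and 7 calls in Basal, 5, 3, 5 and 6 in Early, 2, 2, 6 and 6 in Late, and 0, 0, 8 and 11 in Reactivated. The Basal libraries exceed all Early and Late ones and lie below Reactivated 4. The most widely scored fragment of any member, chr13:55668956-55671296, was in 10 libraries of 6 sets, with Basal scores of 74, 575 and 0, Early scores of 172, 516, 701 and 369, Late scores of 0, 0, 362 and 283, and Reactivated scores of 0, 0, 150 and 116. It was also listed with Fam193b.

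Of 12 member fragments scored in all 4 groups, 6 belong to Grk6, and the other 6 to Gpr64 (2 fragments), Adrbk2, Gng7, Gpr22 and Gpr63 (1 each). Of these 12, 10 were shared with another promoter. They make up 1.86% of member pairs, beside 1.60% of the others, and 0.954% without Grk6. The Adrbk2 fragment chr5:113440961-113443085, in 8 libraries of 5 sets, had no other promoter listed. It was scored 0, 0 and 5 in Basal, 144, 0, 702 and 334 in Early, 0, 0, 1053 and 581 in Late, and 0, 0, 2275 and 2559 in Reactivated. Grk5 had 6 fragments, none in 3 or more sets, and no call in any Reactivated library.

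The RGS proteins and their partners held 96 pairs. Rgs7bp, which anchors RGS proteins of the R7 family at the membrane, had 30 fragments, the most of any member; 98.8% of all promoters had fewer. It had 1, 1 and 6 calls in Basal, 7, 3, 2 and 5 in Early, 0, 0, 10 and 10 in Late, and 0, 0, 9 and 9 in Reactivated, and 22 of the 30 fragments were scored in 1 set. Rgs20, which acts on the Gi class, had 2, 1 and 1 calls in Basal, 0, 0, 3 and 4 in Early, 3, 4, 4 and 4 in Late, and 0, 1, 2 and 5 in Reactivated. Here Basal and Late libraries do not overlap, which also held at Rgs6, Gpr171 and Pde7b (higher in Late) and Grk6 (lower), among others. The share of all promoters whose calls separate these groups was not counted, so nothing about the members is read from this. Rgs6 had 6 fragments, no call in Basal or Reactivated, 1, 0, 1 and 1 in Early and 2, 1, 2 and 2 in Late. Rgs2, an activity-induced gene in neurons, had 2 fragments, and 1 of them, chr1:145643667-145645787, held the highest score of any member: 6364 and 7297 in Reactivated 3 and 4, beside 21 in Late 2. It was also listed with Trove2. Median scores over all pairs were 308 and 313 in Reactivated 3 and 4 and 19 in Late 2.

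**Figure D4:**
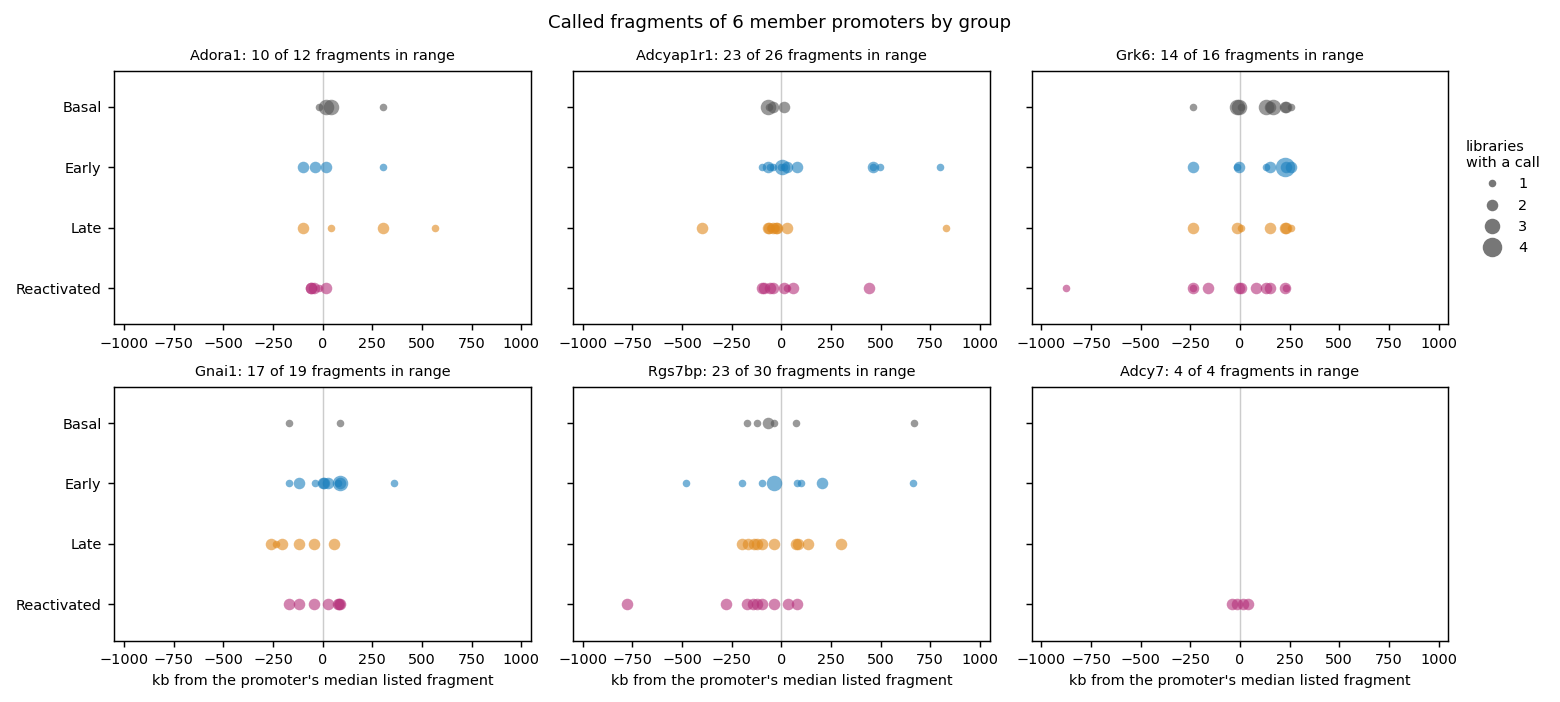
Fragments called in each group (rows) within 1000 kb of the median listed fragment of 6 member promoters, at their distance in kb (horizontal axis); marker size gives the number of libraries of the group with a call. Adcy7 has markers in Reactivated alone, while the other 5 promoters have them in all 4 groups on both sides of the centre.

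The 6 adenylyl cyclases held 52 pairs. Adcy1, the calcium-stimulated cyclase of hippocampal neurons, had 14 fragments, with 1, 0 and 0 calls in Basal, 3, 0, 4 and 4 in Early, 0, 0, 3 and 2 in Late, and 0, 0, 5 and 5 in Reactivated. Adcy8, the other calcium-stimulated form, had 4 fragments, with no call in Basal or Early, 2 and 3 in Late 1 and 2, and 1 each in Reactivated 3 and 4. Adcy10, the soluble bicarbonate-sensitive form, had 9, called 5 and 4 times in Late 1 and 2 and 2 and 3 times in Reactivated 3 and 4. Adcy7 had 4 fragments, all called in Reactivated 3 and 4 and scored in no other library. Its scores there were 375 and 416 on chr8:90780311-90780651, 20 and 10, 22 and 15, and 22 and 25 on the other 3. Adcy6 had 3, 2 and 3 calls in Basal, 5, 0, 3 and 2 in Early, 2 in Late library 2 alone, and 3 each in Reactivated 3 and 4.

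The 10 phosphodiesterases held 72 pairs, with a median of 6.5 fragments. Pde7a, specific for cyclic AMP, had 21 fragments, called 2, 2 and 4 times in Basal, 4, 0, 2 and 3 in Early, 0, 0, 7 and 7 in Late, and 0, 0, 6 and 6 in Reactivated. Pde2a, a cyclic GMP-stimulated enzyme, had 6 fragments, and 5 of them were shared, with Arhgef17 among others. It had 0, 0 and 1 calls in Basal, 0, 0, 4 and 3 in Early, 1, 1, 4 and 5 in Late, and 2 each in Reactivated 3 and 4. Its fragment chr7:108089228-108089435 was scored 27 in Basal 3, 18, 0, 287 and 211 in Late and 3200 and 4500 in Reactivated 3 and 4. Pde9a, which breaks down cyclic GMP, had a fragment at chr17:31584601-31590713 that no other promoter shared. It was scored 694 and 423 in Basal 1 and 2, 76 and 42 in Early 3 and 4, and 48, 0, 100 and 85 in Late. Pde1a and Pde10a had 4 and 1 fragments, without a call in Basal or Early. Pde4d, a cyclic AMP phosphodiesterase studied in memory, had 7 fragments and at most 2 calls in a library.

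Differences between groups were tested with limma on all 15 libraries together and on all promoters or pairs of the table, in 3 ways: the mean asinh score of a promoter over its fragments, its number of called interactions, and the asinh score of each pair. The asinh transform behaves like a logarithm for high scores and is 0 where no score was given. A call needed a Benjamini-Hochberg adjusted p under 0.05 over all 4429 promoters, 4403 promoters with a call, or 36353 pairs. No member promoter and no member pair passed in any of the 6 comparisons, and the lowest adjusted p of a member over the 18 fits was 0.0542. A pair is in the table only where some library scored it, so a promoter or pair seen in 1 group alone had to differ, and its test adds nothing to the scores themselves. Where a promoter or pair had no score in 1 of the groups compared, it could not come out higher there. Pairs named for being scored in every library of 1 group and in none of another were picked for that separation. Fits of all these promoters and pairs are no support for a difference. The groups share libraries between comparisons, so the 6 are not independent.

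In Early against Basal, the largest differences in called interactions were higher means at Gnai1 and Adcyap1r1 and lower means at Grk6 and Adora1, and none passed the test. Gnai1 had 4.75 ± 3.20 calls (SD, n = 4) in Early and 0.667 ± 0.577 (n = 3) in Basal, a difference of 4.08 (SE 2.10, limma adjusted p = 0.899, and 0.406 to 1 over the alternatives). Adcyap1r1 had 5.50 ± 1.91 against 2.67 ± 1.53 (difference 2.83, SE 2.79, limma adjusted p = 0.991). Grk6 had 4.75 ± 1.26 against 7.33 ± 0.577 (difference -2.58, SE 3.47, limma adjusted p = 1), and Adora1 1.75 ± 1.50 against 4.00 ± 1.73 (difference -2.25, SE 1.74, limma adjusted p = 0.973). In each case the difference was under 2 standard errors.

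For mean scores in this comparison, 0 of 72 members passed and 0% of all promoters did. At an unadjusted p under 0.05 there were 6 members (8.33%) and 5.83% of all promoters. For calls the shares at an adjusted p were 0 members and 0% of all, and at an unadjusted p 4 members (5.56%) and 4.57%. For pairs they were 0 members and 0%, and 61 member pairs (9.46%) beside 10.6%. The 6 members at an unadjusted p were Adra2a and Gnaq, lower in Early by mean scores, and Adra2b, Gnas, Gpr12 and Gpr153, higher. Gnaq differed by -1.71 (SE 0.556, limma adjusted p = 0.401) and Gpr12 by 1.66 (SE 0.540, limma adjusted p = 0.401) on the asinh scale. Gnaq passed without Reactivated libraries 1 and 2 (limma adjusted p = 0.0438, and 0.0241 to 1 over the alternatives). It had no score in Early and could not come out higher there, so these fits are no support for a difference. Adra2a passed without Basal library 3 (limma adjusted p = 0.0207, and 0.0207 to 1 over the alternatives), the Basal library in which it has no call. The median member difference was 0.175 and that of all promoters 0.

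Present in all Basal libraries but absent from the Early ones were 4 member pairs (0.620% of member pairs, beside 0.875% of all pairs), and none the other way (0.0715% of all). They belong to Adcy6, Adora1 (2 pairs) and Grk6. The Adcy6 fragment, chr15:98625097-98638585, was scored 732, 401 and 12 in Basal, in no Early or Late library, and 3857 and 4975 in Reactivated 3 and 4. On the asinh scale it differed by -5.72 (SE 2.39, limma adjusted p = 0.405, and 0.0114 to 0.946 over the alternatives). This fragment was picked for its separation of the groups, so these fits are no support for a difference. The Adora1 fragment chr1:136182440-136184833 was scored 446, 268 and 23 in Basal, 17 in Late 2 and nowhere else. The Grk6 fragment chr13:55608682-55624608 was scored 359, 157 and 27 in Basal and in no other library.

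**Figure D5:**
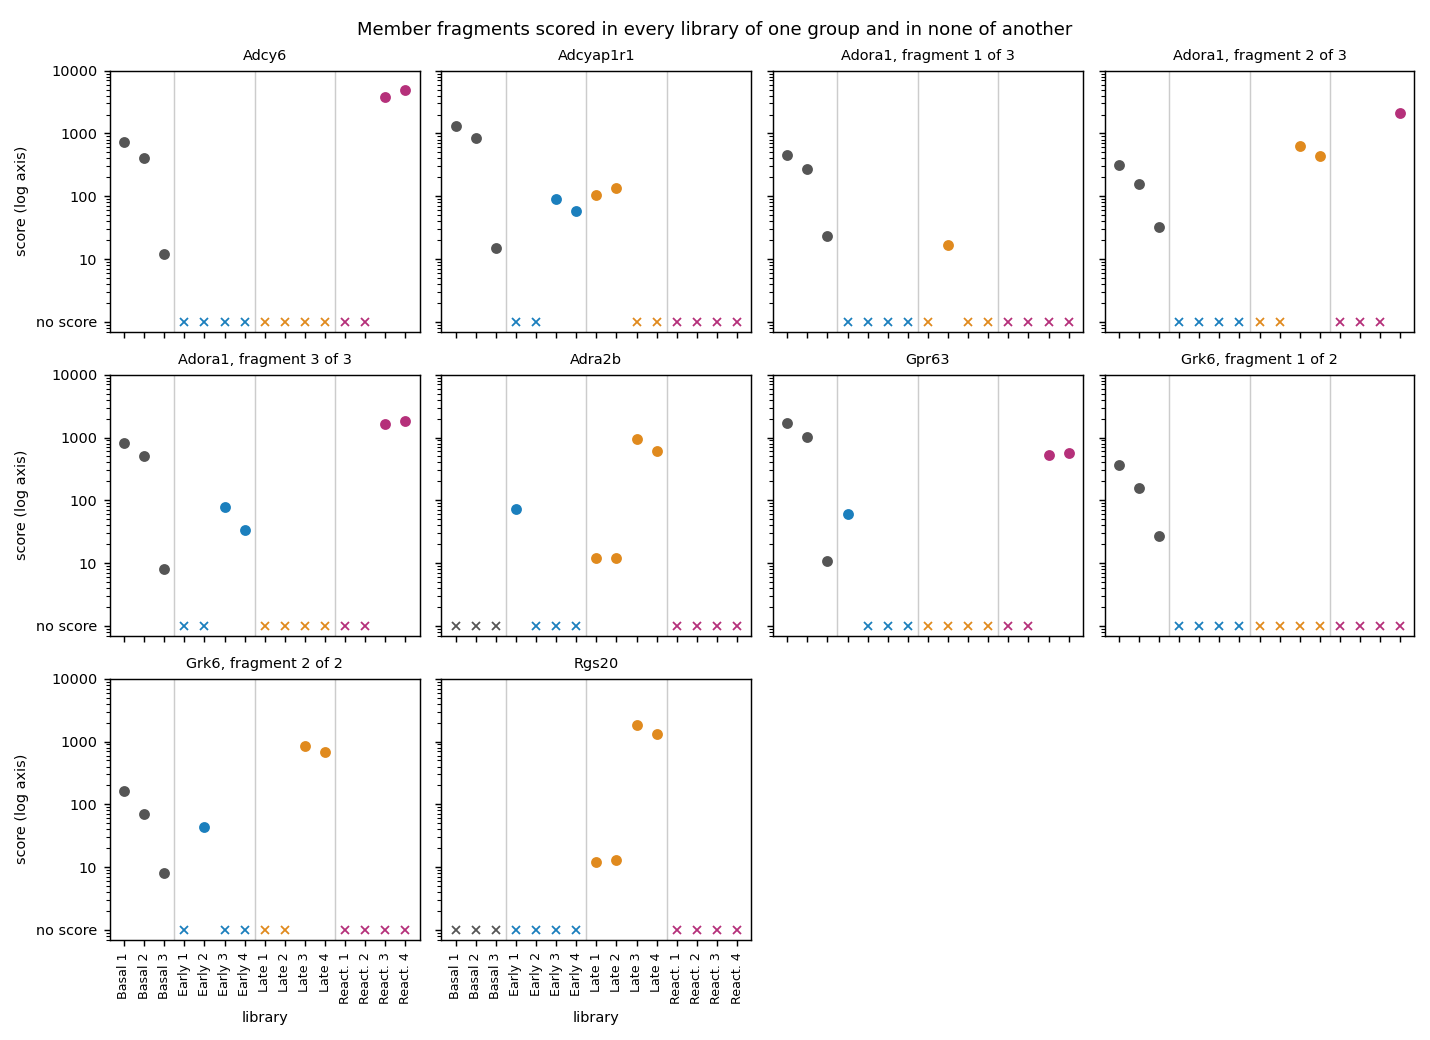
Score by library (vertical log axis, crosses mark no score) for 10 member fragments scored in every library of one group and in none of another. Most are present in the 3 Basal libraries. The Rgs20 and Adra2b fragments are present in the 4 Late libraries, with scores of 12 or 13 in Late 1 and 2 and 618 to 1807 in Late 3 and 4. Median scores over all pairs were 18 and 19 in Late 1 and 2 and 160 and 99 in Late 3 and 4.

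In Late against Early, mean calls were higher at Gpr26 and Adcy10 and lower at Gpr27 and Adcy6 (Gnai1 tied with Adcy6), and none of these differences passed. Adcy10 had 2.25 ± 2.63 calls (n = 4) in Late, all in libraries 1 and 2, and none in Early (difference 2.25, SE 0.775, limma adjusted p = 0.249, and 0.110 to 1 over the alternatives). Gpr26 had 5.00 ± 4.76 against 2.75 ± 1.26 (difference 2.25, SE 2.06, limma adjusted p = 0.842). Gpr27 had 1.75 ± 1.50 against 4.75 ± 2.99 (difference -3.0, SE 1.98, limma adjusted p = 0.678), and Adcy6 0.500 ± 1.00 against 2.50 ± 2.08 (difference -2.0, SE 1.21, limma adjusted p = 0.671). Within Late, Gpr26 was called mainly in libraries 3 and 4 and Adcy10 in libraries 1 and 2 alone.

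By mean scores 0 of 72 members passed, beside 0.0903% of all promoters, and 6 (8.33%) had an unadjusted p under 0.05, beside 6.95%. For calls 0 members and 0% of all passed, and 6 (8.33%) had such a p, beside 9.54%. For pairs 0 and 0% passed, with 117 member pairs (18.1%) at such a p, beside 15.1%. Pde10a had the largest difference among the 6, 2.72 (SE 0.950, limma adjusted p = 0.486), which is that of its only fragment, scored 142 and 95 in Late 3 and 4 and thus in the table through those libraries alone. Rgs6 was higher in Late by 1.22 (SE 0.469, limma adjusted p = 0.519) and Gpr12 lower (-1.37, SE 0.500, limma adjusted p = 0.486). Only 1 member pair was scored in every Late and no Early library (0.155%, beside 0.239% of all pairs), and none the other way (0.044% of all). It is the Rgs20 fragment chr1:4766476-4776104, scored 12, 13, 1807 and 1332 in Late and in no other library (asinh difference 5.63, SE 1.83, limma adjusted p = 0.276, and 0.0410 to 0.710 over the alternatives). This pair had to be higher in Late, so these fits are no support for a difference.

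In Reactivated against Late, Adcy7 and Gnal had the largest positive differences in calls and Gpr26 the largest negative one, followed by Rgs6, Pde2a, Rgs20 and Adra2b at the same value, and none passed. Every Reactivated mean joins libraries 3 and 4 with libraries 1 and 2, which hold 0 and 4 member pairs. Adcy7 had 2.00 ± 2.31 calls (n = 4) against 0 in Late, a difference of 2.00 (SE 0.527, limma adjusted p = 0.0542, and 2.53e-06 to 1 over the alternatives). Its adjusted p was 0.00165 without Reactivated library 1, 0.00184 without Reactivated library 2, 0.0482 with calls counted from a score of 3, and 1 with each library set averaged first, but Adcy7 is in the table only through Reactivated libraries 3 and 4, so these fits are no support for a difference. Rgs6 had no Reactivated call against 1.75 ± 0.500 in Late (difference -1.75, SE 0.612, limma adjusted p = 0.123). Gnal had 3.00 ± 3.46 against 1.00 ± 1.15 (limma adjusted p = 0.602), and Gpr26 2.50 ± 2.89 against 5.00 ± 4.76 (limma adjusted p = 0.649).

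By mean scores 0 members passed, beside 0.0677% of all promoters, and 9 (12.5%) had an unadjusted p under 0.05, beside 13.8%. For calls 0 members and 0% of all passed, and 7 (9.72%) had such a p, beside 14.4%. For pairs 0 and 0% passed, and 180 (27.9%) had such a p, beside 26.2%. Adcy7 differed by 2.18 (SE 0.773), Gpr179 by 3.99 (SE 1.37) and Htr1d by 3.03 (SE 1.05), each with a limma adjusted p of 0.278; all 3 are in the table only through Reactivated 3 and 4, 2 libraries of a single set, and so had to be higher there. No member pair was scored in every Reactivated and no Late library (0.00275% of all pairs), and 2 were scored in every Late and no Reactivated library (0.310%, beside 0.311% of all). Besides Rgs20, this was the Adra2b fragment chr2:127201100-127204070, scored 12, 12, 930 and 618 in Late and 72 in Early 1 (asinh difference -5.25, SE 1.95, limma adjusted p = 0.141). Its fit is no support for a difference, since the pair was picked for this separation.

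Late against Basal had its largest positive differences in calls at Rgs20 (3.75 ± 0.500 against 1.33 ± 0.577) and Pde2a (2.75 ± 2.06 against 0.333 ± 0.577), and its largest negative ones at Grk6 (4.00 ± 2.31 against 7.33 ± 0.577) and Gnal (1.00 ± 1.15 against 3.67 ± 4.62). Rgs20 differed by 2.42 (SE 1.62, limma adjusted p = 0.709) and Pde2a by 2.42 (SE 1.19, limma adjusted p = 0.543). The Rgs20 libraries of the 2 groups did not overlap, while Gnal had 1, 1 and 9 Basal calls and its difference was 0 without Basal library 3. By mean scores 0 members passed, beside 0.0677% of all promoters, and 7 (9.72%) had an unadjusted p under 0.05, beside 8.2%. For calls 0 and 0% passed, and 11 (15.3%) had such a p, beside 8.47%. For pairs 0 and 0% passed, and 85 (13.2%) had such a p, beside 12.9%. Among members, Rgs6 was higher by 1.78 (SE 0.507, limma adjusted p = 0.207) and Adra2a lower (-3.05, SE 0.978, limma adjusted p = 0.280). Without Basal library 3, Adra2a passed (limma adjusted p = 0.00759, and 0.00759 to 1 over the alternatives). Rgs6 had no score in Basal and Adra2a none in Late, so neither could come out the other way, and these fits are no support for a difference.

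The median member difference in mean score was 0.448 in Late against Basal and 0.145 over all promoters; 66.7% of members were higher and 25.0% lower, beside 57.0% and 36.1% of all promoters. In the other comparisons the member and overall medians were 0.0545 and 0.0620 (Late against Early), 0.192 and 0.182 (Reactivated against Late), 0.436 and 0.311 (Reactivated against Basal) and 0.329 and 0.258 (Reactivated against Early). Comparisons with a common group share its libraries, so these medians are not independent. Scored in every Late and no Basal library were 2 member pairs (0.310%, beside 0.237% of all pairs), those of Rgs20 and Adra2b, and 5 in every Basal and no Late library (0.775%, beside 0.869%). Among the latter are pairs of Gpr63, Adora1, Adcy6 and Grk6. The Gpr63 fragment chr4:24912047-24914073 was scored 1688, 1016 and 11 in Basal, 61 in Early 1, and 532 and 576 in Reactivated 3 and 4 (asinh difference -6.28, SE 2.45, limma adjusted p = 0.288, and 0.0603 to 0.794 over the alternatives). Having been picked for its separation of Basal and Late, it gains no support from these fits.

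Reactivated against Basal had its largest positive differences in calls at Gnai1 (3.5 ± 4.04 against 0.667 ± 0.577, limma adjusted p = 0.706) and Adcy1 (2.50 ± 2.89 against 0.333 ± 0.577, limma adjusted p = 0.595). Negative differences included those at Grk6 (4.75 ± 5.62 against 7.33 ± 0.577, limma adjusted p = 0.908) and Adora1 (2.50 ± 3.00 against 4.00 ± 1.73, limma adjusted p = 0.860). Both became positive, 2.17 and 1.00 calls, without Reactivated libraries 1 and 2, which hold no call of either promoter. Without those libraries the limma adjusted p was 0.0116 at Gnai1 (range over the alternatives 0.0116 to 1) and 0.00882 at Adcy1 (0.00882 to 1), with the 2 libraries of a single set left. By mean scores 0 members passed, beside 0.0226% of all promoters, and 9 (12.5%) had an unadjusted p under 0.05, beside 11.2%. For calls 0 and 0% passed, and 4 (5.56%) had such a p, beside 8.88%. For pairs 0 and 0% passed, and 112 (17.4%) had such a p, beside 20.3%. No member pair was scored in every Reactivated and no Basal library (0% of all pairs), and 4 the other way (0.620%, beside 0.985%). These were of Adcyap1r1, Adora1 and Grk6 (2 pairs). The Adcyap1r1 fragment scored 1304 in Basal 1, given above, had an asinh difference of -6.23 (SE 2.51, limma adjusted p = 0.207). As it was picked for this separation, the fit is no support for a difference.

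Reactivated against Early had its largest positive differences in calls at Gpr63 (4.25 ± 4.92 against 1.50 ± 2.38, limma adjusted p = 0.651) and Adcy7. Adcy7 had 2.00 ± 2.31 against 0 (limma adjusted p = 0.163, and 2.53e-06 to 1 over the alternatives). It is in the table only through Reactivated libraries 3 and 4 and had to be higher there, so these fits are no support for a difference. The largest negative differences were at Gpr27 (3.00 ± 3.56 against 4.75 ± 2.99, limma adjusted p = 0.835) and Adcyap1r1 (3.75 ± 4.35 against 5.50 ± 1.91, limma adjusted p = 0.904), and both became positive, 1.25 and 2.00 calls, without Reactivated libraries 1 and 2. By mean scores 0 members and 0% of all promoters passed, and 11 (15.3%) had an unadjusted p under 0.05, beside 11.3%. For calls 0 and 0% passed, and 8 (11.1%) had such a p, beside 10.7%. For pairs 0 and 0% passed, and 144 (22.3%) had such a p, beside 21.3%. Gpr12 (-1.66, SE 0.500) and Gnas (-1.14, SE 0.428) were lower in Reactivated, each with a limma adjusted p of 0.392. Neither had a score in any Reactivated library, so neither could come out higher there, and these fits are no support for a difference. No member pair was scored in every library of one of these groups and in none of the other; over all pairs the shares were 0.00275% for Reactivated and 0.0743% for Early. With 35 pairs in Reactivated library 1, hardly any pair could be scored in every Reactivated library.

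The counts for the Reactivated group depended on its libraries 1 and 2. Without them 34 members (47.2%) passed by mean score against Late, beside 43.8% of all promoters, 35 (48.6%) against Basal, beside 45.6%, and 34 (47.2%) against Early, beside 45%. By calls, 17 (23.6%), 21 (29.2%) and 17 (23.6%) passed, beside 28.1%, 29.1% and 29.4%. These shares are near those of all promoters. Those fits leave in the group 2 libraries of a single set, which share 95.5% of the member pairs of the smaller one. With each set averaged to 1 value, no member passed in any comparison.

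Genes of the same pathway with other names were taken from 4 lists. Of 51 effectors of cyclic AMP and cyclic GMP, such as protein kinase A subunits and anchoring proteins, 21 were in the table with a median of 8 fragments, and 0 of 21 passed in either direction in any comparison on mean scores or calls. Akap7, a kinase anchoring protein, and Prkg1, the cyclic GMP-dependent kinase, had 19 fragments each, Prkar2b 16, Prkacb 15 and Pkib 12. Prkacb, a catalytic subunit of protein kinase A, had 2, 2 and 1 calls in Basal, 5, 2, 1 and 2 in Early, 2 in each Late library, and 5 each in Reactivated 3 and 4. Of 19 genes of cyclic GMP synthesis, 4 were in the table: Npr1 with 19 fragments, Npr3 with 13, Gucy1a3 with 5 and Nos1 with 2. None passed.

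Of 35 further effectors and regulators of G proteins, 15 were in the table with a median of 6 fragments, led by Rasgrp1 (17), the potassium channel subunit Kcnj3 (15), Plcb4 (10), Kcnj9 (8) and Pik3r5 (8), and 0 of 15 passed. Plcb4, a phospholipase C acted on by Gq, had 7 calls each in Reactivated 3 and 4 and at most 2 in any other library. Of 119 G protein-coupled receptors without a matching prefix, 34 were in the table, also with a median of 6. Sstr4, a somatostatin receptor, had 43 fragments and calls in all 15 libraries, and Lgr5 had 29, Npy5r 22, Sstr1 16 and S1pr1 15. None of the 34 passed. Sstr4 had 4, 4 and 6 calls in Basal, 7, 4, 8 and 11 in Early, 7, 9, 8 and 8 in Late, and 1, 2, 8 and 8 in Reactivated. It had more fragments than any of the 72 members, whose largest number was 30.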

How the data were processed

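Promoter-capture Hi-C was measured in 15 libraries of sorted hippocampal nuclei. The authors deposited 1 table of interaction scores, whole numbers with no stated normalization, on mm9 per the submitters' processing notes; the aligner and interaction caller have names not given in the sources used here. Scores were taken as asinh(score), 0 where none was given, and called from 5. Tests used limma 3.58.1 in R 4.3.3, robust and with a variance trend, over all 15 libraries, with Benjamini-Hochberg adjustment over the whole table, after a check on simulated data. Libraries of a group sharing at least 40% of the smaller one's fragments form a set, and 9 sets result. Library totals run from 35 to 12133 pairs, so a member's absence from Reactivated libraries 1 and 2 carries little precision. Intervals are Wilson 95% intervals. Members and gene lists were chosen with earlier results of these data known. Genes are named for the largest differences in calls, the most fragments, the most recurrent or separated fragments, or membership of a list; other members named for their values were chosen after these were seen. Alternatives changed the scale, variance trend, normalization, filter, libraries, sets, shared fragments, replicate block and call score. Python 3.11.15 with pandas 2.3.3 and matplotlib 3.10.9 was used otherwise. The values of 1 member are not reported here, though it stays in the counts.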

Additional observations from a re-analysis of the deposited data

Results flagged for a closer look

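Each value here lies far from the others of its group of 4 libraries, by a gap larger than Dixon's 95% critical value of the group's range, which chance exceeds in about 1 of 20 groups of independent continuous values. That rate does not hold for the call counts, which are small whole numbers with ties from libraries that share fragments: 3 equal counts and 1 differing by a single call already exceed it, as in Early for Rgs9 with 1, 2, 1 and 1. Members made up 2.22% of the pairs of Early library 2, the smallest Early library with 1715 pairs, against 1.94% to 1.96% in the other Early libraries. Gnai1 had 0 calls in Early library 2 and 6 to 7 in the other Early libraries. Adcy6 had 2 calls in Late library 2 and none in the other Late libraries. Rgs6 had 1 call in Late library 2 and 2 in each of the others, and Rgs20 had 3 calls in Late library 1 and 4 in each of the others.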

How the results depend on the processing

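Reactivated libraries 1 and 2 hold 0 and 4 member pairs, which limits what they can show. Without them 34 members passed limma by mean score in Reactivated against Late, 35 against Basal and 34 against Early, 17, 21 and 17 passed by calls (47.2%, 48.6%, 47.2%, 23.6%, 29.2% and 23.6% of members, beside 43.8%, 45.6%, 45%, 28.1%, 29.1% and 29.4% of all promoters), and 157, 154 and 159 member pairs passed (24.3%, 23.9% and 24.7%, beside 25.1%, 24.9% and 25.1% of all pairs), with 1 library set left in the group; 1 member by mean score and 3 pairs passed in Early against Basal, and 1 member and 2 pairs in Late against Basal (pairs 0.465% and 0.310%, beside 0.525% and 0.649% of all). The member by mean score was Gnaq in both, 1.39% of members, beside 0.203% of all promoters in Early against Basal and 0.519% in Late against Basal. Without Reactivated libraries 1 and 2 the differences in calls changed sign at Grk6 (2.17) and Adora1 (1.00) in Reactivated against Basal. They also did at Gpr27 (1.25) and Adcyap1r1 (2.00) in Reactivated against Early. Quantile normalization gave 2 members by mean score in Early against Basal (Gnaq, Gpr153) and 1 in Late against Early (Gpr171). It gave 1 in Reactivated against Late (Rgs6) and 3 in Late against Basal (Gnaq, Gpr171, Rgs6). These were 2.78%, 1.39%, 1.39% and 4.17% of members, beside 0.497%, 0.768%, 0.316% and 1.35% of all promoters. Gpr171 had no score in Basal or Early and Rgs6 none in Basal or Reactivated, so neither could come out lower in Late. Gnaq had no score in Early and could not come out higher there. The fits at Gpr171 and Rgs6, and that at Gnaq in Early against Basal, are no support for a difference. Fits on only the groups compared gave 1 member, Gnas, in Early against Basal and 1, Gnas, in Reactivated against Early. This is 1.39% of members each time, beside 0.564% and 0.135% of all promoters. Gnas had no score in Reactivated and could not come out higher there. Calls from a score of 3 gave 1 member, Adcy7, in Reactivated against Late (1.39% of members, beside 0.317% of all promoters tested). Adcy7 is in the table only through Reactivated libraries 3 and 4. With no variance trend, 2 member pairs passed in Early against Basal, 1 in Late against Early, 1 in Reactivated against Late, 3 in Late against Basal and 2 in Reactivated against Basal, beside 0.391%, 0.157%, 0.162%, 0.553% and 0.402% of all pairs. The cause of these changes was not tested.

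With 1 library left out at a time, 0 to 1 members passed by mean score in Early against Basal, 0 to 0 in Late against Early, 0 to 3 in Reactivated against Late, 0 to 1 in Late against Basal, 0 to 0 in Reactivated against Basal and 0 to 3 in Reactivated against Early. By calls, 0 to 1 passed in each comparison with Reactivated and 0 to 0 in the others. Without Reactivated library 1 or 2 these were Adcy7, Gpr179 and Htr1d by mean score and Adcy7 by calls. These promoters are in the table through Reactivated 3 and 4 alone. By mean score they were 4.17% of members, beside 3.32% to 3.5% of all promoters against Late and 2.82% to 3.05% against Early. By calls 1.39% of members passed, beside 4.34% to 4.38% of all against Late, 1.98% to 2.02% against Basal and 3.09% to 3.13% against Early. Without Basal library 3 it was Adra2a, 1.39% of members. Beside it, 1.49% of all promoters passed in Early against Basal and 1.54% in Late against Basal. Of member pairs, 0 to 20, 0 to 2, 0 to 84, 0 to 25, 0 to 76 and 0 to 81 passed, in the order given for mean scores. The counts were largest when Basal 3, Early 1, Reactivated 1 or Reactivated 2 was left out. At these largest counts the member shares were 3.10%, 0.310%, 13.0%, 3.88%, 11.8% and 12.6%, and those of all pairs 5.76%, 0.256%, 13.5% to 13.6%, 6.15%, 12.3% and 12.9%. The member share of pairs stayed at 1.75% to 1.80%, the share in 1 set at 63.3% to 69.9% and the median at 6 to 7 fragments. On fragments listed with 1 promoter, 71.0% of member pairs were in 1 set and the median was 6. With a set counted as scored when any of its libraries is, 4 member pairs separated Late from Early (0.620%, beside 0.723% of all pairs), 5 Late from Reactivated (0.775%, beside 0.806%), 1 Reactivated from Basal and 1 Reactivated from Early (0.155% each, beside 0.0825% and 0.0413%). Same-numbered libraries of different groups did not deviate together, with 21 correlations from -0.0678 to 0.0667, and with the replicate number as a block 0 members passed in all 18 fits. With set means, 0 members passed too. Of 838 alternative values of 35 named differences, 801 kept their side of the threshold and were not reversed in sign. A difference of 0 was counted as not reversed.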
